A study of Mus musculus with 16 samples.

Results

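Of the 15876 mouse genes measured in 16 RNA-seq libraries of the early face and brain, 96 were chosen because their symbols begin like those of ion channel and neurotransmitter receptor genes. The symbol pattern took potassium channels (Kcn), calcium channels (Cacn), sodium channels (Scn), glutamate receptors (Gria, Grid, Grik, Grin), GABA receptors (Gabr), acetylcholine receptors (Chrn), glycine receptors (Glr), Trpc, Trpm and Trpv channels, Hcn channels and chloride channels (Clcn). It found 36 potassium, 13 calcium, 4 sodium and 6 chloride channel genes, 8 Trp and 2 Hcn channel genes, and 10 glutamate, 6 GABA, 6 acetylcholine and 1 glycine receptor gene. The remaining 4 genes, Glrx, Glrx2, Glrx3 and Glrx5, encode glutaredoxins, which are redox enzymes and no channels, so the channel and receptor genes number 92.

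Ion channels let sodium, potassium, calcium or chloride cross a membrane down its gradient. Voltage-gated channels open when the membrane potential changes, and glutamate, GABA, glycine and nicotinic acetylcholine receptors open when their transmitter binds. Mature neurons use them for action potentials and synaptic currents, but some act in embryos before synapses exist: human mutations in KCNJ2 (Andersen-Tawil syndrome) and CACNA1C (Timothy syndrome) change the face as well as the heartbeat.

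All libraries were total RNA from microdissected regions of embryos of the outbred CD1 strain, and E counts embryonic days: 4 libraries came from E8.5, 4 came from E9.5 and 8 came from E10.5. The neural epithelium class held 6 libraries: lateral prominence, central and dorsal control at E10.5, and caudal brain, floor plate and non-floor plate at E8.5. The mesenchyme class held 8: mesoderm at E8.5, cranial mesenchyme, mandibular arch and maxillary arch at E9.5, and lateral and medial nasal prominence with both arches again at E10.5. The epithelium class held the E9.5 epidermal ectoderm and the E10.5 olfactory pit. Each region and stage had 1 library, the number of embryos behind it is not given in the sources used here, and a dissected region keeps any vessels, blood and neighbouring cells that came with it.

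The deposited value of a gene was a ratio to its own median over the 16 libraries, with low values raised to a floor. A level is used here: the value divided by the lowest value of that gene. For 84 of the 96 members the lowest value occurred in 2 or more libraries, so a level is a multiple of the floor, and a level more than 1% over it is called above the floor. In the other 12 (Cacnb2, Cacng7, Clcn2, Clcn3, Clcn5, Clcn6, Clcn7, Glrx2, Glrx3, Grik5, Trpc2 and Trpm7) no floor was seen, and a level is the multiple of the lowest library, a lower bound. A level compares libraries within 1 gene and gives no abundance between genes. Being at the floor does not show that a gene was silent, and fewer cells of a type and less RNA per cell cannot be told apart in these dissected tissues.

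The library labelled medial nasal prominence did not carry the markers of its class. Of 12 mesenchyme markers it had 1 above the floor, against 9 to 12 in the other 7 mesenchyme libraries, and Twist1, Prrx1 and Col3a1 were at the floor in it. The mean log2 level of 12 neural progenitor markers was 3.47 there, against 0.08 to 1.14 in the other 7. It is called the library labelled medial nasal prominence, and results that touch it are given with and without it. The column heads of the libraries labelled central and dorsal control name each other's region (CNE and DCNE), so those labels may be exchanged. Both are neural and lie in the same group of every test. Values named for either library, and fits that leave either out, follow the labels and would trade places if those are exchanged. The olfactory pit library had all 12 measured entries of the olfactory placode markers above their lowest values, with a mean log2 level of 3.65, the highest of the 16 libraries. Of these markers Ebf1 was measured under more than 1 gene identifier, and Gnrh1 was not measured. The share of all 8788 genes with a known floor that stood above it ranged from 18.2% in the E10.5 mandibular arch to 49% in the olfactory pit, so counts below are set beside that share.

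Many channel and receptor genes were close to their floor. Of the 82 with a known floor, 46 (56.1%) never reached a level of 2 in any library, against 36.1% of all genes with a known floor, and 8 (9.76%) reached a level of 5, against 24.1%. Among these 8 were Cacna1b, Cacna1g, Cacna1h, Cacnb3 and Cacng4 of the calcium channel family, the kainate receptor subunit Grik2 and the potassium channel Kcnk1. The median of the highest level was 1.86 over the 82 genes and 2.69 over all genes with a known floor. A single library carried 33 of the 82 above the floor (40.2%, against 21.6% of all genes). Potassium channels, the largest family, had 23 of 36 genes under a level of 2 throughout.

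**Figure D1:**
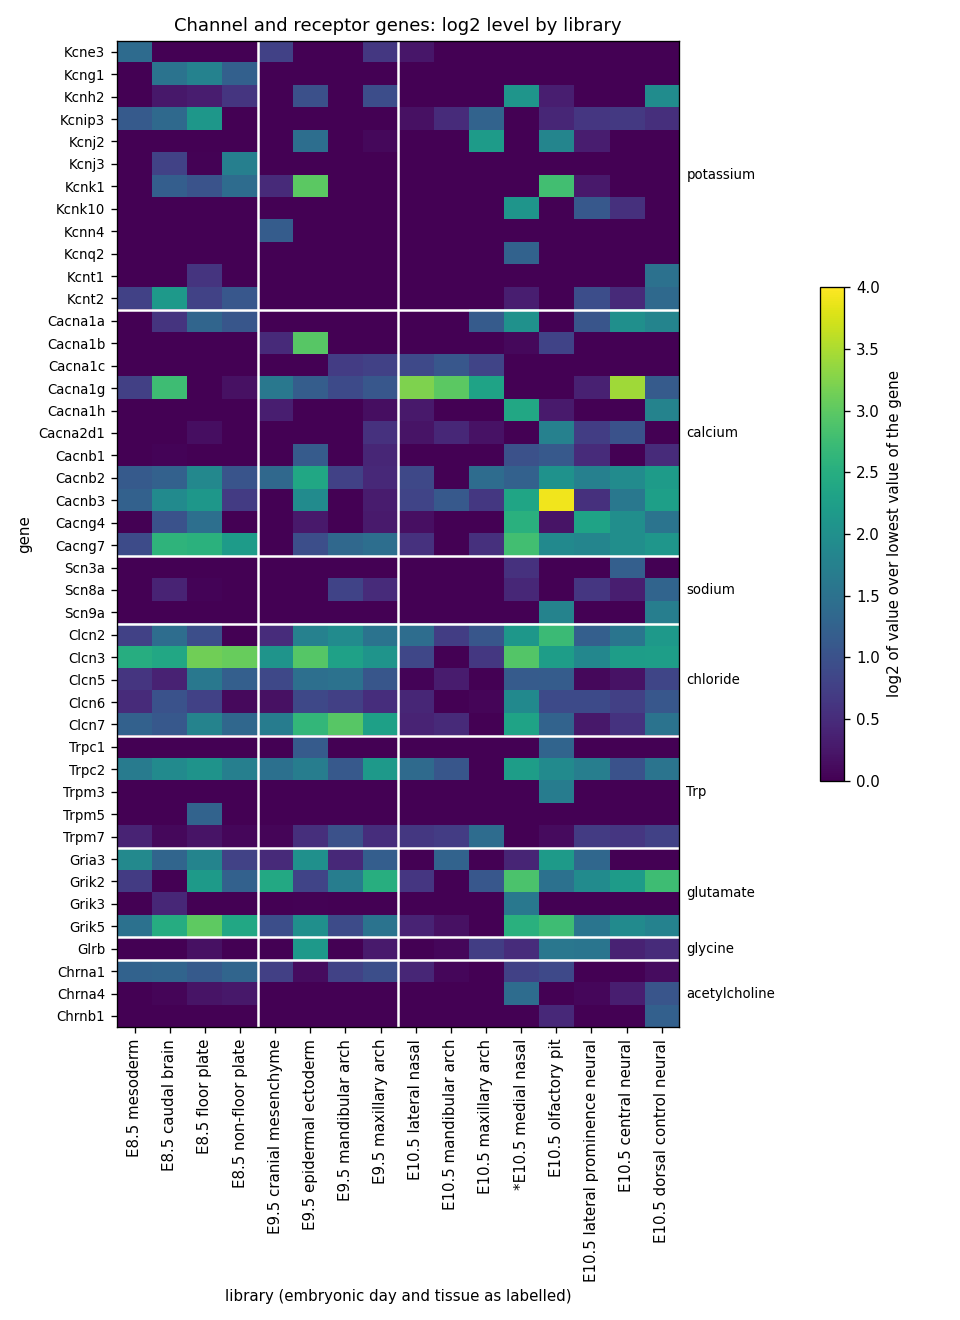
Log2 level of 44 of the 46 channel and receptor genes that reached a level of 2 in at least 1 library (rows, by family) in the 16 libraries (columns, E8.5, E9.5 and E10.5 between white lines; the asterisk marks the library labelled medial nasal prominence). Many cells are at 0, the lowest value of the gene, and the brightest cell is Cacnb3 in the olfactory pit, at a level of 15.1.

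In the youngest neural tissue, at E8.5, 33 of the 82 channel and receptor genes with a known floor were above it in at least 1 of the 3 neural libraries (40.2%, against 61.2% of all genes with a known floor) and 12 in all 3 (14.6%, against 23.5%). Among the 12 were Cacna1a, Cacnb3, Chrna1, Chrna4, Gria3, Kcng1, Kcnh2, Kcnj3, Kcnk1 and Kcnt2. Markers of maturing neurons were mixed in the same libraries. Dcx, Elavl3 and Mapt, a migration protein, an RNA-binding protein and a microtubule protein of young neurons, were at the floor in all 3. The synaptic vesicle genes Snap25, Syp and Syt1 did not exceed 1.14. Others stood well above it. Stmn2, which marks growing axons, was at 7.22 in the caudal brain, 11.3 in the floor plate and 5.71 in the non-floor plate. The neurofilament genes Ina and Nefl were at 3.75, 16.2 and 8.75 and at 2.83, 3.42 and 1.69 in that order. Map2, a dendrite microtubule protein, was at 2.51, 7.62 and 2.82, the neuronal tubulin Tubb3 at 1, 6.45 and 6.77, and the growth cone protein Gap43 at 1, 7.20 and 1.85. Of 24 neuron markers, 7 to 10 were above their lowest value in the E8.5 neural libraries, with summed levels from 40.3 to 73.1, and their part in the channel levels was not tested.

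Several of these 12 genes were not confined to neural tissue. Gria3, an AMPA receptor subunit, was at 2.46, 3.505 and 1.73 in the E8.5 caudal brain, floor plate and non-floor plate, and it was also at 3.69 in the E8.5 mesoderm, 4.03 in the epidermal ectoderm and 4.51 in the olfactory pit. Kcnt2, a sodium-activated potassium channel, was at 4.46, 1.73 and 2.12 in the same E8.5 order and at 1.71 in the mesoderm. Neural tissue carried Kcnj3, a subunit of G protein-gated potassium channels, alone: it was at 1.72, 1.02 and 3.33 in that E8.5 order and at the floor in the other 13 libraries. Kcnh2, the channel of the cardiac rapid delayed rectifier current, was low at 1.19, 1.25 and 1.54, and higher in the dorsal control library at 3.83.

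By family, and over genes with a known floor, the E8.5 neural libraries had 12 of 36 potassium, 6 of 11 calcium, 5 of 9 glutamate, 4 of 6 GABA, 3 of 6 acetylcholine and 1 of 6 Trp genes above the floor in at least 1 library, beside the 61.2% of all genes. Of the 4 sodium channel genes 1 was above it, of the 2 Hcn genes 0, and the glycine receptor gene Glrb was at 1.14 in the floor plate alone. The count per library, over the 84 genes of the pattern with a known floor, was 35.7% in the floor plate, 28.6% in the caudal brain and 19% in the non-floor plate, against 41.3%, 41.4% and 41.2% of all genes with a known floor. The E8.5 mesoderm had 16.7%, against 43.6% of all genes.

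**Figure D2:**
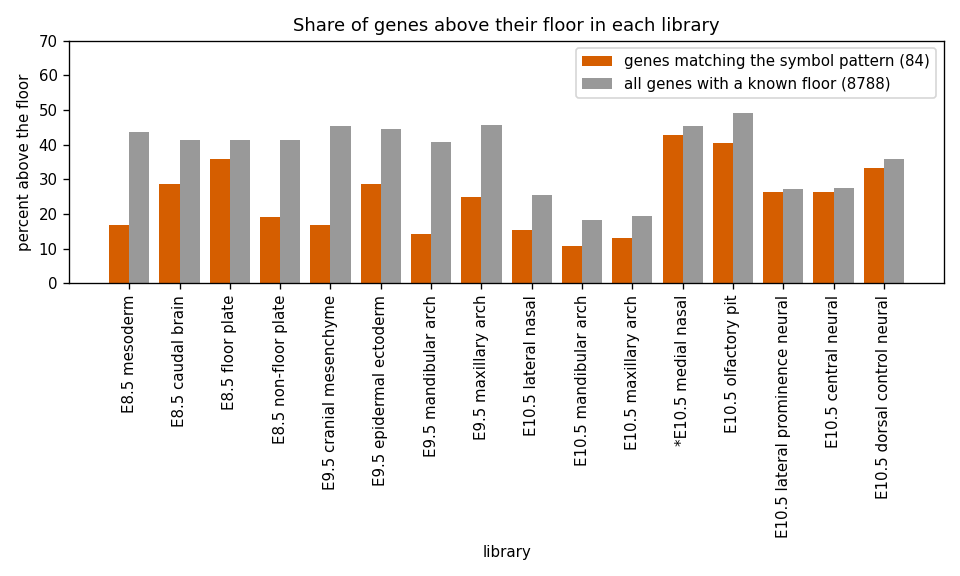
Share of genes above the floor (percent) in each of the 16 libraries, for the 84 genes of the symbol pattern with a known floor (82 channel and receptor genes and 2 glutaredoxins; orange) and for all 8788 genes with a known floor (grey). The orange bar is lower than the grey bar in every library, and the bars are close in the 3 E10.5 neural libraries; the library under the medial nasal prominence label (asterisk) had 42.9% against 45.4%.

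The other tissues had shares of their own. Among E9.5 libraries the epidermal ectoderm had 28.6% (44.6% of all genes), the maxillary arch 25% (45.7%), the cranial mesenchyme 16.7% (45.5%) and the mandibular arch 14.3% (40.7%). Among E10.5 mesenchyme libraries the lateral nasal prominence had 15.5% (25.4%), the maxillary arch 13.1% (19.3%) and the mandibular arch 10.7% (18.2%). The E10.5 lateral prominence and central neural libraries each had 26.2% and the dorsal control 33.3%, beside 27.2%, 27.3% and 35.8% of all genes. The olfactory pit had 40.5%, against 49% of all genes. No test applies to shares of single libraries.

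By tissue, 32 of the 82 channel and receptor genes with a known floor (39%) were above it only in the 6 neural libraries or the library labelled medial nasal prominence, against 15.1% of all genes. With that library left out of the count, 23 (28%) were above it only in neural libraries, against 13.6% of all genes. Of the 32, 12 stood above the floor in at least 2 such libraries (14.6%, against 4.57% of all genes), among them the nicotinic receptor subunits Chrna3 and Chrna4, the GABA receptor subunit Gabra3, the sodium channel Scn3a, and Kcng1, Kcnip1, Kcnip2, Kcnj3, Kcnk10 and Kcnt1. Another 10 (12.2%, against 4.48%) were above the floor only in the 2 epithelium libraries, and 9 (11%, against 11.3%) only in the 7 other mesenchyme libraries. The library labelled medial nasal prominence was the highest library for 20 of the 82 genes, or 24.4%, against 9.66% of all genes with a known floor. It alone held 9 above the floor, among them the adult brain receptor subunits Gria2 (1.45), an AMPA receptor subunit, and Gabrb2 (1.52).

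The neural against mesenchyme test passed 3 members, Grik5, Cacng7 and Cacng4, once the library labelled medial nasal prominence was left out, and 0 with it. Cacng4 met the filter on low values only through the neural group, so its call is no support for a difference. Grik5 encodes a kainate receptor subunit. It had levels of 2.94, 3.75 and 3.40 in the lateral prominence, central and dorsal control libraries at E10.5, and of 5.57 in the caudal brain, 8.05 in the floor plate and 5.25 in the non-floor plate at E8.5. In mesenchyme it ran from 1 to 2.86 with a median of 1.89 in 7 libraries, and stood at 5.80 in the library labelled medial nasal prominence. The epithelium libraries were high as well, at 3.99 in the epidermal ectoderm and 6.77 in the olfactory pit. Cacng7 encodes gamma-7, an auxiliary subunit that binds AMPA receptors. It had levels of 3.52, 3.92 and 4.31 in the E10.5 lateral prominence, central and dorsal control libraries, and 6.06, 5.89 and 4.57 in the E8.5 caudal brain, floor plate and non-floor plate. Mesenchyme libraries had 1 to 2.73 with a median of 1.49, except 6.91 in the library labelled medial nasal prominence. In both genes every neural library was above all 7 other mesenchyme libraries, for Grik5 by 2.94 against 2.86. Levels are not centred on the median gene. Its log2 shift ran from -0.82 to 0.40 in these 7 libraries and from -0.28 to 0.29 in the neural libraries. Cacng4, another AMPA receptor auxiliary subunit, was at 5.01, 3.92 and 2.92 at E10.5 and at 2.01, 2.76 and the floor at E8.5, in the same library order, against 1.22 or less in the 7 other mesenchyme libraries. It was at 5.79 in the library labelled medial nasal prominence, and only the E8.5 non-floor plate overlapped the mesenchyme range.

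The bases before the RefSeq start of the 2 genes with the lowest adjusted p in the neural comparison without the library labelled medial nasal prominence are shown because their promoters can be read beside it (RefSeq, GRCm38.p6; 250 bases upstream, 5′ to 3′ on the strand of the gene, with GGGCGG or CCGCCC, the GC box, in capitals). Cacng7 lies at chr7:3332575-3332824 on the plus strand and Grik5 at chr7:25072370-25072619 on the minus strand. The bases that follow the window occur in a GENCODE transcript of Grik5; those of Cacng7 were not matched to one.
Cacng7: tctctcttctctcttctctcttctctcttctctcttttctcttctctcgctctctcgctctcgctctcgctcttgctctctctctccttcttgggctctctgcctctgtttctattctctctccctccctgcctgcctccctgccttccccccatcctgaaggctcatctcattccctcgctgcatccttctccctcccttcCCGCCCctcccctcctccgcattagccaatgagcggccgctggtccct
Grik5: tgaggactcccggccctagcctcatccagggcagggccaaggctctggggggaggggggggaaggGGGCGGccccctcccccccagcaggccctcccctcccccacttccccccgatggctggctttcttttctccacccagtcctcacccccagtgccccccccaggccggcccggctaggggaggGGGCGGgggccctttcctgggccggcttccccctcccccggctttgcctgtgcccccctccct
The Cacng7 window holds 1 GC box and the Grik5 window 2. Of the 76 members with a promoter in the table, 45 held GGGCGG on either strand (59.2%), against 35.4% of 27025 genes. Those 27025 are all genes with a RefSeq promoter and not the 15876 measured genes from which the members came. A gene was counted when any of its start windows held the letters, so genes with more starts had more windows to match. The E-box letters CAGATG stood in 13 (17.1%, against 16.3%) and CAGCTG in 16 (21.1%, against 14.7%). TTCAGCACC, which is part of the site of the neuronal gene repressor REST, stood in 0 of 76, against 0.348% of all genes. The GC box letters can overlap each other, and a match is a description of these letters in the window.

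The comparison of neural epithelium with mesenchyme over all stages used limma with stage as a covariate. No neural library came from E9.5, so the E9.5 mesenchyme libraries enter the spread and not the fitted folds. At E8.5 the mesoderm was the only mesenchyme library. A member passed with an adjusted p (Benjamini-Hochberg) below 0.05 and at least a 2-fold difference. With all 14 libraries limma passed 0 of 44 tested members, where it called 0.93% of all 12473 genes tested. At an unadjusted p under 0.05 it found 9 members (20.5%), against 15.6% of all genes. Without the library labelled medial nasal prominence, 3 of 41 tested members were higher in neural epithelium and 0 lower, while 2.07% of 12246 genes were higher and 2.33% lower. Grik5 was higher by a log2 fold of 1.18 ± 0.18 (SE; 6 neural and 7 mesenchyme libraries; limma, adjusted p = 0.0015), Cacng7 by 1.34 ± 0.26 (adjusted p = 0.0090) and Cacng4 by 1.30 ± 0.29 (adjusted p = 0.018). With that library the adjusted p-values of limma were 0.13, 0.15 and 0.20, at log2 folds of 0.92, 1.06 and 1.04. Cacng4 was at the floor in 5 of the 7 mesenchyme libraries, so its fitted fold depends on the floor. With 2 mesenchyme libraries above the floor, it met the filter of 3 libraries only through the neural group, where it is high. Its call is therefore no support for a difference, and its levels are a description. The median log2 difference without that library was 0.15 over the 41 members and -0.07 over all genes. Each library of a class is another region, so these p-values measure spread between regions and not between repeats. Summed levels of the 24 neuron markers ran from 40.3 to 104 in the neural libraries, and from 26.97 to 49.6 in the 7 mesenchyme libraries; they came to 192 in the library labelled medial nasal prominence. Their part in the channel differences was not tested.

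**Figure D3:**
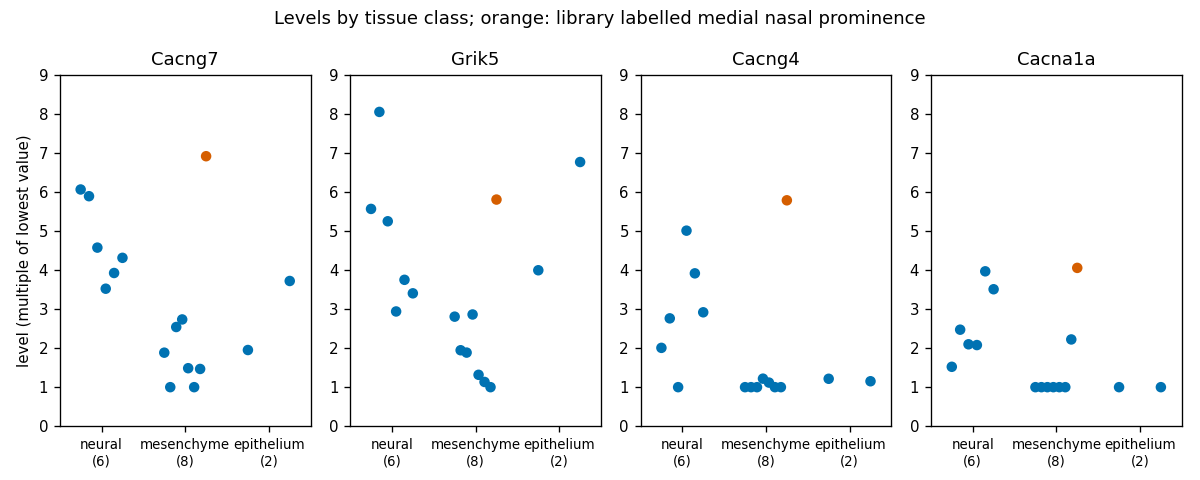
Levels (multiples of the lowest value of the gene) of Cacng7, Grik5, Cacng4 and Cacna1a in the 6 neural, 8 mesenchyme and 2 epithelium libraries; each point is 1 library. The library labelled medial nasal prominence (orange) stands above the other 7 mesenchyme libraries in all 4 genes, at 4.05 to 6.91.

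The nicotinic receptor subunit Chrna4 was split by tissue at low levels. It was at 1.05, 1.26 and 2.07 in the lateral prominence, central and dorsal control libraries at E10.5 and at 1.04, 1.16 and 1.20 in the caudal brain, floor plate and non-floor plate at E8.5, with 2.67 for the library labelled medial nasal prominence and every other library at the floor. Of 50 members above the floor in at least 3 libraries, 4 had every neural library over the 7 other mesenchyme libraries. Cacng7, Grik5 and Chrna4 were among these 4, and 1.47% of all such genes had this pattern. The opposite pattern was seen in 0 members, against 0.819% of all such genes. Chrna4 was at the floor in all 7 other mesenchyme libraries, so it reached 3 libraries only through the neural group, where it is higher. The count of 4 is a description and no support for a difference. These levels are not centred on the median gene.

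The P/Q-type calcium channel subunit Cacna1a had levels of 2.08, 3.97 and 3.51 in the E10.5 lateral prominence, central and dorsal control libraries, and 1.52, 2.47 and 2.10 in the E8.5 caudal brain, floor plate and non-floor plate. It was at the floor in 6 of the 7 other mesenchyme libraries, at 2.22 in the E10.5 maxillary arch, and at 4.05 in the library labelled medial nasal prominence. Clcn3, a chloride-proton exchanger of endosomes, was above its lowest library in 15 of 16 libraries. Its levels were 3.62, 4.67 and 4.72 at E10.5 and 5.29, 8.80 and 8.38 at E8.5 in the same neural order, against 1 to 5.65, with a median of 4.18, in the 7 other mesenchyme libraries, and the classes overlap. On values as deposited, 6 members passed limma toward neural epithelium without the library labelled medial nasal prominence, beside 2.92% of all genes. Among them were Grik5, Cacng7, Cacng4, Clcn3 and Cacna1a. Cacng4 and Cacna1a met the filter of 3 libraries only through the neural group, so their calls are no support for a difference. The median log2 difference on that scale was 0.38 over the tested members and 0.17 over all genes. Clcn7, the lysosomal chloride-proton exchanger, was highest in the E9.5 mandibular arch (7.83) and epidermal ectoderm (6.26). Cacnb2, a beta subunit of voltage-gated calcium channels, was highest in the epidermal ectoderm (5.21) and next in the dorsal control (4.59). Cacna1h, a T-type calcium channel pore, was at 5.29 in the library labelled medial nasal prominence, 3.47 in the dorsal control and 1.27 or less elsewhere. The kainate receptor subunit Grik2 was above the floor in 14 libraries, from 7.27 in the library labelled medial nasal prominence and 6.79 in the dorsal control to 1 in the E8.5 caudal brain and E10.5 mandibular arch, with 5.69 in the E9.5 maxillary arch.

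Some channels were above the floor in face tissues. Cacna1c, the pore of the L-type calcium channel, was above it in 5 of 16 libraries: 1.64 in the mandibular and 1.71 in the maxillary arch at E9.5, and 1.85, 2.13 and 1.77 at E10.5 in the lateral nasal prominence, the mandibular and the maxillary arch. It was at the floor in the other 11 libraries, which include all 6 neural libraries, both epithelia and the library labelled medial nasal prominence. The neural against mesenchyme test did not pass (limma adjusted p = 0.48, and 0.11 without that library). Cacna1g, a T-type calcium channel pore, was high in both classes, at 6.78 in the E8.5 caudal brain and 10.8 in the central library, and at 9.35, 7.96 and 4.98 in the E10.5 lateral nasal prominence, mandibular arch and maxillary arch. The inward rectifier Kcnj2 was at 4.60 in the E10.5 maxillary arch, 3.53 in the olfactory pit and 2.72 in the epidermal ectoderm, and was at 1.25 or less in the other 13 libraries. Kcne3, an accessory potassium channel subunit, was above the floor in mesenchyme only, at 2.64 in the E8.5 mesoderm and 1.71 in the E9.5 cranial mesenchyme. The acetylcholine receptor subunit Chrna1, known from muscle, was above the floor in 13 libraries, at 2.38 in the E8.5 mesoderm and 2.19 to 2.48 in the E8.5 neural libraries.

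Between the E10.5 and the E8.5 neural libraries, 1 chloride channel, 1 potassium channel and 1 glutaredoxin were called. Limma on 3 against 3 libraries tested 34 members and called 1 higher and 2 lower, where 7.13% and 9.15% of the 10434 genes tested were higher and lower. At an unadjusted p under 0.05 it found 16 members (47.1%), against 36.1% of all genes. Clcn2, a plasma-membrane chloride channel, was at 2.31, 2.94 and 4.42 in the E10.5 lateral prominence, central and dorsal control libraries and at 2.69, 1.94 and 1 in the E8.5 caudal brain, floor plate and non-floor plate. The groups overlap, and Clcn2 was higher by 1.21 ± 0.35 relative to the median gene (SE; limma, adjusted p = 0.047); as deposited the log2 fold was 0.84 with an adjusted p of 0.17. The call was lost with any of the 6 libraries left out, at adjusted p-values of 0.053 to 0.13 with limma. Without the trend option limma called Cacng4 higher and not Clcn2. The exons of Clcn2 overlap Polr2h and Fam131a on the opposite strand. Without a stated strand of the libraries, those reads cannot be told apart.

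Kcng1, a modifier subunit of Kv2 potassium channels, was the channel called lower at E10.5. It was at the floor in all 3 E10.5 neural libraries and at 2.89, 3.43 and 2.33 in the E8.5 caudal brain, floor plate and non-floor plate, and in no other library of the 16 was it above the floor. The groups do not overlap, and the lowest E8.5 level was 2.33 times the floor. Kcng1 passed the filter on low values only through the E8.5 libraries, where it is high, so its call is no support for a difference and its levels are a description. Of the 34 members tested 2 had passed the filter this way, Kcng1 and Kcnj3, as had 428 of the 10434 genes. The other member called lower was Glrx5, which assembles mitochondrial iron-sulfur clusters and is no channel; it had levels of 2.08, 1 and 1 at E10.5 and 5.35, 5.17 and 6.08 at E8.5 (limma adjusted p = 0.020). Its call was lost without the E8.5 caudal brain, the E8.5 non-floor plate or the central library, at adjusted p-values of 0.061 to 0.084 with limma. Glrx5 was highest in the E9.5 cranial mesenchyme (19.3), the library with the highest erythroid markers (mean log2 level 5.18). In the neural libraries the summed levels of those markers were 74.9 to 114 at E10.5 and 10.2 to 13.0 at E8.5. Their part in the levels of Glrx5 was not tested. Glrx, a cytosolic glutaredoxin, was highest in the E9.5 epidermal ectoderm (7.92).

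Values as deposited move the balance. The median log2 difference of all genes between E10.5 and E8.5 neural libraries was -0.35 on the deposited scale, and 0.02 once centred on the median gene. As deposited 0 members passed higher and 5 lower (2.97% and 16.9% of all genes), the 5 being Chrna1, Glrx3, Glrx5, Kcng1 and Kcnk1. Chrna1 was at 1, 1 and 1.09 in the E10.5 lateral prominence, central and dorsal control libraries and at 2.45, 2.19 and 2.48 in the E8.5 caudal brain, floor plate and non-floor plate. The groups do not overlap; its log2 fold relative to the median gene was -0.83 with a limma adjusted p of 0.036, under the 2-fold limit. Kcnk1 was at 1.21, 1 and 1 against 2.30, 2.02 and 2.65 in the same order, with a limma adjusted p of 0.12. The interaction of class with stage called 0 of 41 members and 0 of 11682 genes (0%) with limma; at an unadjusted p under 0.05 it found 3 members, with Kcng1 and Kcnk1 among them, and 368 genes (7.32% and 3.15%). Without the library labelled medial nasal prominence it called 0 of 37 members and 3 of 11375 genes (0.0264%), with 5 members (13.5%) and 1063 genes (9.35%) at an unadjusted p under 0.05.

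**Figure D4:**
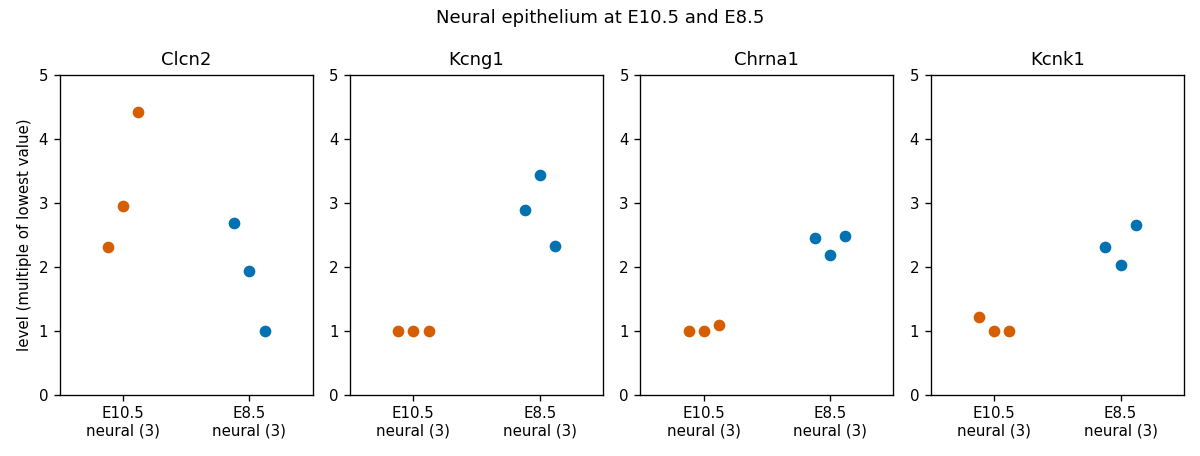
Levels (multiples of the lowest value of the gene) of Clcn2, Kcng1, Chrna1 and Kcnk1 in the 3 E10.5 and 3 E8.5 neural libraries; each point is 1 library. Kcng1, Chrna1 and Kcnk1 are at or near 1 in all 3 E10.5 libraries, and the Clcn2 groups overlap between 2.31 and 2.69.

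The olfactory pit was set against the brain as 1 library against each of the 3 E10.5 neural libraries, relative to the median gene, with no test. A gene was counted when all 3 folds were 2 or more in the same direction and its higher level was 5 or more. Of 8 eligible members 3 were counted higher in the olfactory pit, Cacnb3, Kcnk1 and Glrx5, and 0 lower, where 28.2% of 2453 eligible genes were higher and 3.22% lower. Cacnb3, a beta subunit that carries voltage-gated calcium channels to the membrane, was at 15.1 in the olfactory pit, against 1.46, 3.04 and 4.77 in the lateral prominence, central and dorsal control libraries. The folds were 7.89, 3.59 and 2.63, and no other library exceeded 5.10. Its fold over the E9.5 epidermal ectoderm, the other epithelium, was 4.39. Kcnk1, a tandem-pore potassium channel of epithelia and brain, was at 6.95 in the olfactory pit, against 1.21 in the lateral prominence and the floor in the central and dorsal control libraries. Its fold was 4.38 over the lateral prominence, at least 5.01 over the central and at least 5.75 over the dorsal control library. It was at 7.995 in the E9.5 epidermal ectoderm, so the fold of the olfactory pit over that tissue was 0.956, and its exons overlap an antisense transcript. Glrx5 was at 8.55 in the olfactory pit, against 2.08, 1 and 1.

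The Cacnb3 promoter of the RefSeq start at the more downstream position is shown because Cacnb3 had the highest multiple of its own floor of the members in the olfactory pit (RefSeq, GRCm38.p6, chr15:98634517-98634766, plus strand, 250 bases upstream of the start; GC boxes GGGCGG or CCGCCC in capitals). The bases that follow it occur in a GENCODE transcript of the gene.
Cacnb3: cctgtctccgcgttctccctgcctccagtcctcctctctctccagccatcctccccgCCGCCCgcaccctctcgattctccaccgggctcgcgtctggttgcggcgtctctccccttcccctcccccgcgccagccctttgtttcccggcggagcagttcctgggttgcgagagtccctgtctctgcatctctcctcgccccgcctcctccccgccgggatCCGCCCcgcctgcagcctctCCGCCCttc
It holds 3 GC boxes and 23 CG pairs. In windows of the same length the median was 10 CG pairs over the 76 members and 6 over all 27025 genes with a RefSeq promoter, measured here or not. Those medians take the first listed window of each gene, which for Cacnb3 is that of the other start. The window of the other RefSeq start, chr15:98632078-98632327, differs: it holds 0 GC boxes, 2 CG pairs and 1 CAGATG.

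With the level minimum at 2, 37 members were eligible and 5 were higher in the olfactory pit, where 11.6% of 9444 genes were higher and 3.11% lower. The additional 2 were Kcnj2, at 3.53 against 1.25, 1 and 1, and the calcium-permeable channel Trpm3, at 3.21 in the olfactory pit alone among all 16 libraries, with exons that overlap noncoding transcripts of the opposite strand. The folds were 2.15 for Kcnj2 over the lateral prominence and at least 2.55 and 2.93 over the other 2, and at least 2.32 to 2.66 for Trpm3. Cacng4 and Cacna1a were lower. Cacng4 was at 1.15 in the olfactory pit, against 5.01, 3.92 and 2.92, with folds of 0.175, 0.212 and 0.327. Cacna1a was at the floor in the olfactory pit, against 2.08, 3.97 and 3.51.

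**Figure D5:**
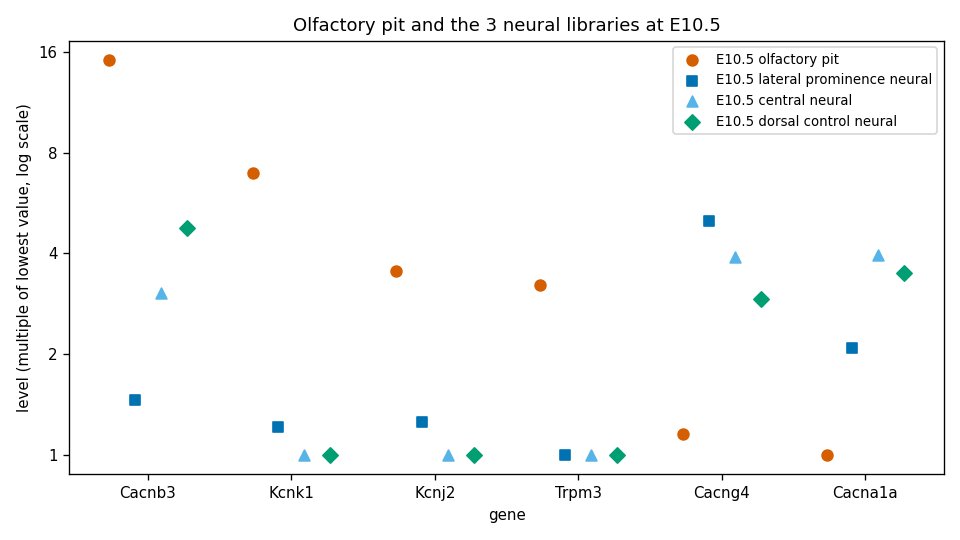
Levels (multiples of the lowest value of the gene, log axis) of 6 members in the E10.5 olfactory pit library and in the 3 E10.5 neural libraries (lateral prominence, central and dorsal control); each point is 1 library. Cacnb3, Kcnk1, Kcnj2 and Trpm3 are highest in the olfactory pit and Cacng4 and Cacna1a lowest there.

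The olfactory pit shared some channels with the epidermal ectoderm. Of the 82 channel and receptor genes with a known floor, 3 were above it in these 2 epithelia and in no other library, which is 3.66% against 1.31% of all genes. Among them was Trpc1, a cation channel, at 2.45 in the olfactory pit and 2.22 in the epidermal ectoderm. Cacna1b, the N-type calcium channel pore, was at 1.74 in the olfactory pit and 7.82 in the epidermal ectoderm. The sodium channel of sensory neurons Scn9a was at 3.46 in the olfactory pit and 3.27 in the dorsal control library and at the floor in the other 14. The olfactory pit carried neuronal and epithelial markers. In it 21 of 24 neuron markers were above their lowest value. Their summed level was 216, against 71.4 to 104 in the 3 E10.5 neural libraries. Elavl4 (44.8), Tubb3 (27.4) and Nhlh1 (25.4) were the highest in that sum. At a level of 5, 4 of 14 eligible neuron markers were counted higher and 1, Nefm, lower. Among all eligible genes 28.2% were higher and 3.22% lower. Of the surface epithelium markers 11 of 11 were above their lowest value, with a summed level of 321, against 11.6 to 16.4. The summed level of 10 erythroid markers was 968 in the olfactory pit, against 74.9 to 114 in the 3 neural libraries, and 4 of 4 eligible ones were counted higher there. Their part in the levels of Glrx5 and the channels was not tested, nor was which cells of the pit hold the transcripts.

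Genes that work beside the channels were drawn from 9 lists with 121 genes, of which 65 were measured. In the neural against mesenchyme comparison without the library labelled medial nasal prominence, 2 of 45 tested were higher, the sodium pump subunit Atp1b1 and the membrane anchor Ank2 (log2 folds 1.06 and 1.03), and 1 was lower, the endoplasmic reticulum calcium channel Itpr1 (-1.05), beside 2.07% and 2.33% of all genes. With that library 0 passed. Atp1b1 was at 1.21 in the E9.5 cranial mesenchyme and at the floor in the other mesenchyme libraries of that fit. It met the filter of 3 libraries only through the neural group, so the Atp1b1 call is no support for a difference. Between E10.5 and E8.5 neural libraries 4 of 39 were higher, the calcium release channel Itpr2, the scramblase and channel Ano6, the glutamate transporter Slc1a3 and the GABA-B receptor subunit Gabbr1, and 2 lower, the gap junction protein Gja1 and the store-operated channel Orai1, beside 7.13% and 9.15% of all genes. Itpr2 was at 1.12 in the E8.5 caudal brain and at the floor in the other E8.5 neural libraries, and Gabbr1 was at the floor in that caudal brain. Both met the filter of 3 libraries only through the E10.5 libraries, so their calls are no support for a difference. In the olfactory pit, at a level of 5, 3 of 14 eligible genes were higher (Gad2, which makes GABA, Ank3 and the mitochondrial channel Vdac3) and 1 lower (Dlg1, a scaffold), beside 28.2% and 3.22% of all eligible genes. Transmitter G protein receptors had 2 of 15 genes measured and purine and serotonin channels 3 of 9. Sodium and potassium pumps, calcium pumps, intracellular calcium channels and gap junctions had 6 of 9, 7 of 11, 7 of 11 and 6 of 15 measured. Transmitter synthesis, receptor anchoring and other channels had 10 of 16, 13 of 15 and 11 of 20.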

How the data were processed

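RNA was purified from embryo regions and sequenced in 16 libraries as 50-base single-end reads to more than 40000000 reads, per the labels' protocols; exact totals are unknown, so no counting interval was computed. The submitters' processing notes name Bowtie, TopHat, TopHat2, Cufflinks and build mm9. The deposited values are a ratio: all 15876 genes had a median of 1 within 1e-06, so the authors divided each gene by its own median over the libraries. The sources used here do not give the unit before that step, the strand or the annotation version. Genes whose lowest value was shared by 2 or more libraries (tolerance 1e-06) have a known floor, and values stopped at 0.01 in 6 genes.

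Levels and log2 differences were computed from these values. The tests were run in R 4.3.3 with limma 3.58.1 and its trend option, kept a gene when 3 or more of the fitted libraries exceeded its floor, and took log2 ratios centred on the median gene without a known floor in each library as input. Passing needed a 2-fold difference and a p below 0.05 after Benjamini-Hochberg adjustment over all genes. The scripts were tested on simulated data. The members and lists were chosen with earlier results of these data known. Some members are counted but not reported here by name. Named genes are those that passed a test or were counted in the olfactory pit, the 15 with the highest level, and family examples. Marker lists covered neuron, neural progenitor, olfactory placode, surface epithelium, mesenchyme, muscle and heart, endothelium and erythroid genes. Each gene identifier was counted, and Ebf1 of the olfactory placode list had more than 1. In the neural comparison without the library labelled medial nasal prominence, limma called 3 of 14 neuron and 3 of 11 neural progenitor genes higher, and lower 4 of 11 olfactory placode, 1 of 5 surface epithelium, 7 of 12 mesenchyme, 0 of 2 muscle and heart, 3 of 9 endothelium and 4 of 8 erythroid genes. Promoters came from RefSeq (GRCm38.p6), matched by symbol for 76 of 96 members; exon overlaps came from GENCODE vM21, and mm9 coordinates were not mixed in.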

Additional observations from a re-analysis of the deposited data

Results flagged for a closer look

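Of 18 groups of levels checked for a sample far from the others, 6 showed one. Chance gives about 1 in 20 where values are normally distributed, a rate that does not apply to groups with many values at the floor. Among the 8 mesenchyme libraries, 5 of these were the library labelled medial nasal prominence: Grik5 at a level of 5.80 (next highest 2.86), Cacng4 at 5.79 (next 1.22), Cacng7 at 6.91 (next 2.73), Cacna1a at 4.05 (next 2.22) and Cacnb3 at 5.10 (next 2.37). Grik5, Cacng4, Cacng7 and Cacna1a are genes that passed a neural comparison with that library left out. A high value in it therefore follows in part from the choice of genes. That library also had the mesenchyme markers at or near the floor, and the part of its tissue in these levels was not tested. The other was Kcnk1 in the E9.5 cranial mesenchyme, at 1.39 (1.385 before rounding), where the other 7 mesenchyme libraries were at the floor.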

How the results depend on the processing

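The median number of members above the lowest value over the 16 libraries was 33.5, and became 21 at a level of at least 1.5, 14.5 at a level of at least 2 and 21.5 with only members of a known floor. In the neural against mesenchyme comparison the count higher was 0; leaving out each library gave 0 to 3, no stage covariate gave 2 (Cacng7 and Grik5), and values as deposited without the library labelled medial nasal prominence, an alternative chosen after seeing the data, gave 6. The count lower was 0, with 0 to 1 over the left-out libraries (Glrx5 without the E10.5 maxillary arch). Over all genes the calls were 116, 42 as deposited, 10 with log2(value + 1), 223 with no stage covariate, 30 without the E9.5 libraries, and 15 to 539 over the left-out libraries. Between E10.5 and E8.5 neural libraries the count higher was 1 (Clcn2, but Cacng4 with no trend), and 0 as deposited, with log2(value + 1) and with no filter, and 0 to 2 over the left-out libraries (Cacnb2 and Grik2 without the E8.5 floor plate, Cacna2d1 and Glrb without the dorsal control library). The count lower was 2, and 5 as deposited, 0 with log2(value + 1), 0 when 5 libraries had to exceed the floor, 1 with robust variances, and 0 to 2 over the left-out libraries. All-gene calls there were 1699, 276 with log2(value + 1) and 704 to 1683 over the left-out libraries. In the olfactory pit the count higher was 3, and 5 at a level of 2, 5 with no level minimum, 1 at 4-fold (Kcnk1) and 0 with limma on 1 against 3 libraries, which called 0 of all genes and so says nothing of these 3; the count lower was 0, and 2 at a level of 2 and 3 with no minimum. Each left-out neural library gave the same 3 genes there. The cause of these moves was not tested.

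No paired analysis was possible because each region and stage has 1 library and no shared replicate numbers. The interaction without the E8.5 mesoderm could not be fitted. Limits: 1 library per region, unknown depth, values at the floor that hide differences, and ratios that give no abundance between genes.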
